A study of Mus musculus with 6 samples.

Results

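Arginine can be turned into ornithine or oxidised to nitric oxide and citrulline by the nitric oxide synthases, and citrulline can be turned back into arginine through argininosuccinate. Ornithine is decarboxylated to putrescine, which is extended to spermidine and spermine with aminopropyl groups taken from decarboxylated S-adenosylmethionine, and acetylation marks the higher polyamines for breakdown or export. Polyamines are needed for cell growth, and their synthesis is high in proliferating fibroblasts. The genes described here are 8 genes of this route, Ass1, Nos2, Odc1, Azin1, Amd1, Srm, Sms and Sat1, listed by name. On the array, 7 of the 8 had at least 1 probe under that name, with 16 probes in all among the 55681 probes measured. No probe carried the name Amd1. Of the 3 probes named Amd2, 2 listed a RefSeq accession that belongs to Amd1, and these are described below with the enzymes that supply S-adenosylmethionine.

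Total RNA of immortalized murine embryonic fibroblasts (MEF) was hybridized to mouse arrays in 1 colour, with 2 arrays from independent replicates in each of 3 groups. WT MEF were wild type and labelled as strain W4, TIA1 KO MEF were knock-out for TIA1 on BALB/c, and TIAR KO MEF were knock-out for TIAR on C57BL/6, with no treatment in any group. TIA1 and TIAR (gene Tial1) are related RNA-binding proteins that act in splicing, translation and mRNA decay. Genotype, strain and cell line differed together and cannot be told apart, and all 6 arrays lay on 1 slide, with both TIA1 KO arrays in its second row and the other 4 in the first.

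The arrays were not equally clear of background. Between 23531 and 26254 probes were rated well above background on the WT and TIAR KO arrays, against 16000 and 19920 on the TIA1 KO arrays, whose median spot intensities of 458 and 218 exceeded the 119 to 152 of the other 4 arrays. The correlation between the 2 arrays of a group was 0.989 in WT, 0.988 in TIAR KO and 0.972 in TIA1 KO MEF. Values below are normalized log2 intensities. A call of higher or lower needed a fold change over 2 and a Benjamini-Hochberg adjusted p below 0.05 in limma, fitted over all probes on the 4 arrays compared. With 2 arrays per group, p-values measure the spread between these arrays. A fold given as at least some value compares the brighter group with a dimmer group raised to a detection floor on each array. That floor lay below the median probe on every array but TIA1 KO replicate 1. Such folds are therefore not strict limits, and they leave out the spread between arrays. An array level depends on the probe as well as on the transcript, so differences were tested between groups for 1 probe at a time. Sums over a list of markers depend most on the list's brightest probes and are given as descriptions. In these samples fewer cells expressing a gene cannot be told apart from less RNA per cell.

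The targeted genes were read first. The brightest Tia1 probe gave 10.72 and 8.54 in WT, 7.87 and 8.44 in TIA1 KO, and 9.56 and 9.58 in TIAR KO MEF. Both TIA1 KO arrays were below both WT arrays, but the WT arrays differed by more than the groups did, and the log2 difference of -1.47 ± 0.79 (SE) did not pass (adjusted p = 0.288). A second Tia1 probe was lower by the same measure (-1.62 ± 0.42, adjusted p = 0.116), and the last went against the label, with 7.88 and 8.54 in TIA1 KO above 7.44 and 7.25 in WT MEF (0.87 ± 0.28, adjusted p = 0.149) and a TIA1 KO array as the 1 of the 6 rated well above background. For Tial1, the brightest probe gave 13.22 on the 1 WT array that was kept, 14.07 and 13.69 in TIA1 KO, and 9.57 and 11.60 in TIAR KO MEF, a difference of -2.63 ± 0.87 that was fitted without the other WT array (adjusted p = 0.200). A second Tial1 probe was called lower in TIAR KO MEF (-1.58 ± 0.26, adjusted p = 0.0254). Where the probes lie relative to the deleted parts of the genes was not examined. Gapdh differed by -0.04 and 0.09 at its brightest of 8 probes, while with arrays scaled to a common median it read -1.43 in TIA1 KO MEF and was called (adjusted p = 0.0143).

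Markers of cell types were read in the same arrays, each gene at its brightest probe unless another is named. Vim, which encodes the intermediate filament protein of mesenchymal cells, was high on all 6 arrays (17.24 to 17.89), as was S100a4, while in WT MEF Pdgfra was well above background on neither array and Thy1 and Dcn on 1 each. Of all probes on the array, 2.18% were called higher and 1.36% lower in TIA1 KO MEF, and 3.39% higher and 2.37% lower in TIAR KO MEF. Of 10 fibroblast markers, 7 were called higher with TIA1 knocked out and 8 in TIAR KO MEF, with Col1a1 higher by 2.06 ± 0.16 (adjusted p = 0.0157) and 2.40 ± 0.16 (adjusted p = 0.00132). The summed level of the list was 19.03 and 19.11 (log2) in WT, 20.33 and 20.30 in TIA1 KO, and 20.41 and 20.44 in TIAR KO MEF. The probe that added most to this sum was that of S100a4 or Col1a2, depending on the array. Of 7 macrophage markers, Ptprc, Lyz2 and Emr1 were well above background on none of the 6 arrays. Itgam, at the brightest of its 3 probes, was called higher in TIA1 KO MEF (1.82 ± 0.24, adjusted p = 0.0415). Its other 2 probes, well above background on neither TIA1 KO array, measured -0.53 ± 0.32 (adjusted p = 0.327) and -0.78 ± 0.16 (adjusted p = 0.0903) there. Cd14 was called lower in TIAR KO MEF (-1.32 ± 0.18, adjusted p = 0.0136), where Cd68 read 1.13 ± 0.27 and was not called (adjusted p = 0.0737). Between the knockouts, Cd68 was called higher in TIAR KO MEF (1.48 ± 0.15, adjusted p = 0.0264) and Cd14 and Itgam lower. The summed level of the macrophage list was 13.44 and 13.35 in WT, 14.38 and 14.19 in TIA1 KO, and 13.28 and 13.27 in TIAR KO MEF, to which the Cd14 probe added most in WT and the Itgam probe in both knockouts. Of 5 epithelial markers, Krt8 was called higher in TIA1 KO MEF (1.23 ± 0.17, adjusted p = 0.0444), and Krt18 (2.72 ± 0.14, adjusted p = 0.000707), Cdh1 (at least 2.53-fold, adjusted p = 0.00371) and Krt8 (1.23 ± 0.15, adjusted p = 0.00990) in TIAR KO MEF, with a second Krt8 probe called in neither, while Epcam was well above background on 1 of the 6 arrays. Their summed level was 9.84 and 9.89 in WT, 10.17 and 10.56 in TIA1 KO, and 11.24 and 11.22 in TIAR KO MEF, to which the Krt8 probe added most in WT and TIA1 KO and the Krt18 probe in TIAR KO MEF. Of 4 endothelial markers, limma called 0 in either knockout by brightest probe (1 at an unadjusted p under 0.05 in each, beside 15484 and 11247 of all 55681 probes). A second Kdr probe was called at least 2.33-fold higher in TIAR KO MEF (adjusted p = 0.00708). The brightest Kdr probe added most to the sum on every array, and Cdh5 was well above background on none. The summed level ran from 11.48 to 11.88 over the 6 arrays. What part these differences between the lines have in the results below was not tested.

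The calls fell on Ass1, Odc1 and Srm, 3 of the 7 genes measured. In TIA1 KO MEF, 2 of the 16 probes were called higher, both for Ass1, where 2.18% of all probes were called higher, and 3 were called lower, for Odc1 and Srm, where 1.36% of all probes were called lower. In TIAR KO MEF, 5 of the 16 were called lower (2.37% of all probes) and 0 higher (3.39% of all probes). The lower ones were both Ass1 probes and 3 of the 4 Odc1 probes. In limma, 8 of the 16 had an unadjusted p under 0.05 in either direction there, beside 11247 of all 55681 probes. When TIAR KO was set against TIA1 KO MEF, both Ass1 probes were called lower (1.63% of all probes) and 0 were called higher (1.72% of all probes). Here 10 of the 16 had an unadjusted p under 0.05, beside 12599 of all 55681 probes. The median log2 difference of the 16 probes was -0.25 with TIA1 knocked out and -0.64 in TIAR KO MEF, beside -0.09 and -0.02 for all probes. Both comparisons share the 2 WT arrays.

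**Figure D1:**
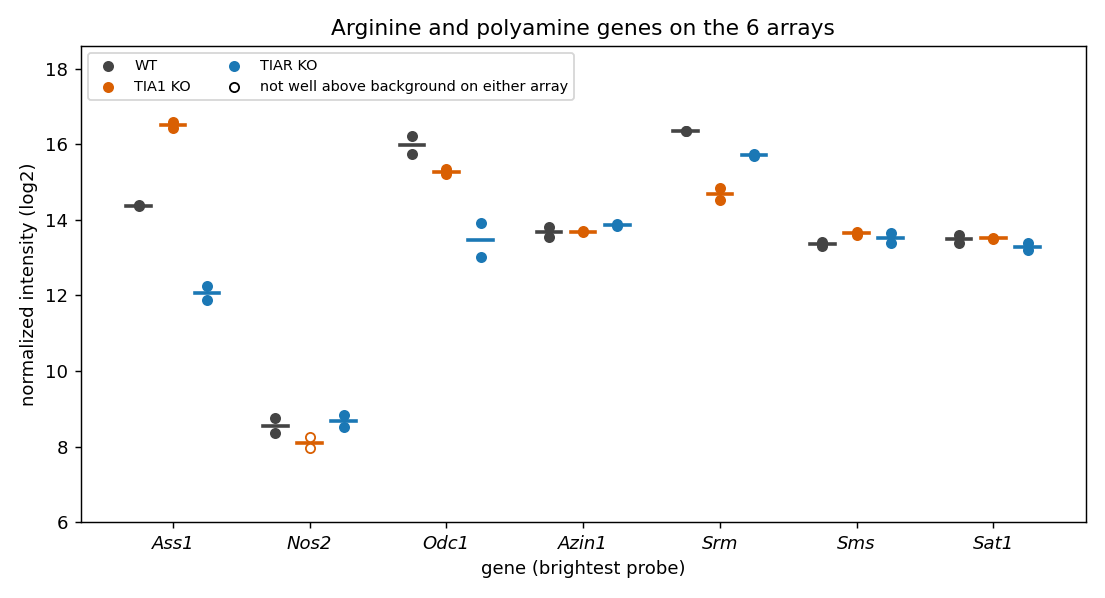
Normalized log2 intensity (vertical axis) of the brightest probe of each of the 7 measured genes on each of the 6 arrays, with points for single arrays, short bars for group means and open points where neither array of the group was well above background. Ass1 lay in 3 separate bands, and Azin1, Sms and Sat1 sat at nearly 1 level in this scaling, though not in TIA1 KO MEF with arrays scaled to a common median.

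Short stretches of the probes that the results turn on are given here, since each value is a reading of 1 such 60-base probe and since Odc1 was read at several places. Positions are those of mm9 in the deposited files, and all stretches are printed 5′ to 3′ in the sense of the transcript. For Ass1 and Srm these are the first 30 of the 60 bases of each probe. The Ass1 probes lay on the plus strand at chr2:31376068-31376127 (brightest) and chr2:31375998-31376057, and the Srm probes on the plus strand at chr4:147968433-147968492 (brightest) and chr4:147968254-147968313.
Ass1, brightest: cccccacagcttttgttccctggtccccta
Ass1, second: tgttgtgataaatttgtaattgtagcttgt
Srm, brightest: gacaccacccgagacctcaatcggattgga
Srm, second: gaaatactataactcggacatgcaccgtgc

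The 4 Odc1 probes lay on the plus strand of chromosome 12, with 1 at chr12:17554799-17554858 and 3 that overlap further downstream, at chr12:17557831-17557890 (the brightest), chr12:17557836-17557895 and chr12:17557869-17557928. The dimmest of the 4, which carried an accession of a single cDNA clone, was compared with the overlapping probes on either side. The stretches shown lie where a pair of probes overlaps, with the first 30 shared positions (chr12:17557836-17557865) for the first pair and all 27 (chr12:17557869-17557895) for the second, and bases that differ at the same position are in capitals.
Odc1, brightest: ccagaagcTtatgttgtgacccattgtgaa
Odc1, dimmest: ccagaagcGtatgttgtgacccattgtgaa
Odc1, furthest downstream: aaagtatcttgaaataactgggCaTCG
Odc1, dimmest, further on: aaagtatcttgaaataactgggAaAAA
In the first pair, 1 of the 30 bases shown differed, and in the second pair 4 of 27, all of them at the end of the dimmest probe.

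Ass1 moved in opposite directions in the knockouts. Argininosuccinate synthase joins citrulline and aspartate in the step that limits the regeneration of arginine. The brightest Ass1 probe gave 14.39 and 14.36 in WT, 16.42 and 16.58 in TIA1 KO, and 12.26 and 11.88 in TIAR KO MEF. The 3 groups formed separate bands, with TIA1 KO highest and TIAR KO lowest. Ass1 was 4.36-fold higher in TIA1 KO (2.13 ± 0.16, adjusted p = 0.0142) and 4.94-fold lower in TIAR KO MEF (-2.30 ± 0.18, adjusted p = 0.00237). The direct comparison gave a 21.6-fold lower level in TIAR KO than in TIA1 KO MEF (-4.43 ± 0.21, adjusted p = 0.00752). The second probe read 12.81 and 13.00, 14.90 and 15.31, and 11.09 and 10.86 in WT, TIA1 KO and TIAR KO MEF, with differences from WT of 2.20 ± 0.21 (adjusted p = 0.0237) and -1.93 ± 0.17 (adjusted p = 0.00309). The fall in TIAR KO MEF was called under all 14 alternative settings, from -2.76 to -2.11. The rise in TIA1 KO MEF was called under 10 of 14 and was not when either WT array was left out (2.14, adjusted p = 0.273, and 2.11, adjusted p = 0.275), with the scanner software's processed signals (2.05, adjusted p = 0.0750) or with arrays scaled to a common median. The last scaling gave 0.60 (adjusted p = 0.318), and it put the median of all probes at -0.68, so that Ass1 stood 1.28 above it. The processed signals put that median at 1.98, so that Ass1 stood 0.07 above it. Relative to the same medians, Gapdh in TIA1 KO MEF read -0.74 with a common median and -2.06 with processed signals. Its own difference with processed signals was -0.08. The fall in TIAR KO against TIA1 KO MEF was not called with TIAR KO replicate 1 or 2 left out (adjusted p = 0.249 and 0.228) or with the replicate number as a block (0.0639).

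Nos2, the inducible nitric oxide synthase of activated cells, gave 8.35 and 8.75 in WT, 7.97 and 8.24 in TIA1 KO, and 8.53 and 8.84 in TIAR KO MEF. The WT and TIAR KO values overlapped, and the probe was well above background on neither TIA1 KO array. With these arrays raised to the detection floor, their mean lay 1.33-fold below WT, a value that leaves out the spread between arrays. Neither difference was called, at a measured -0.44 ± 0.22 (95% interval -1.04 to 0.15, adjusted p = 0.262) with TIA1 knocked out and 0.13 ± 0.21 (95% interval -0.39 to 0.65, adjusted p = 0.807) in TIAR KO MEF.

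Odc1, ornithine decarboxylase, makes putrescine and is the first committed enzyme of polyamine synthesis. The brightest of its 4 probes gave 15.75 and 16.22 in WT, 15.21 and 15.34 in TIA1 KO, and 13.92 and 13.01 in TIAR KO MEF. TIAR KO arrays were lowest, TIA1 KO arrays lay between, and no groups overlapped. In TIAR KO MEF the probe was 5.72-fold lower (-2.52 ± 0.34, adjusted p = 0.0144), and the call was lost only without WT replicate 2 (adjusted p = 0.0522) among 14 alternatives, whose adjusted p ran from 0.0114 to 0.0522. In TIA1 KO MEF the difference was -0.71 ± 0.22 and was not called (adjusted p = 0.146), except at -2.26 with arrays scaled to a common median.

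The probe of Odc1 that lay upstream of the other 3 gave 13.22 and 13.11 in WT, 11.81 and 11.61 in TIA1 KO, and 10.41 and 10.60 in TIAR KO MEF. Here the 3 groups were again in the same order, with replicates close together. This probe was called lower in both knockouts, at -1.46 ± 0.16 (adjusted p = 0.0325) with TIA1 knocked out and -2.66 ± 0.15 (adjusted p = 0.000911) in TIAR KO MEF. In TIA1 KO MEF none of the 16 probes, this one included, was called lower without either WT array, with processed signals or with the replicate block. The probe furthest downstream was called lower in TIAR KO MEF alone (-2.37 ± 0.27, adjusted p = 0.00838), beside -0.94 ± 0.19 in TIA1 KO MEF (adjusted p = 0.0860). The dimmest probe, with the differing bases shown above, was called in neither, at -1.27 ± 0.42 (adjusted p = 0.155) and -1.61 ± 0.38 (adjusted p = 0.0739), and its 2 WT arrays, at 12.83 and 11.70, differed by more than 1 log2 unit. All 4 probes were thus negative in both comparisons, while the TIA1 KO call depended on the probe. Between the knockouts, no Odc1 probe was called, with differences of -1.81 for the brightest (adjusted p = 0.0882) and -1.20 for the upstream probe (adjusted p = 0.0517). With arrays scaled to a common median, the brightest read -0.66 in this comparison, beside a median of all probes of 0.63.

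Azin1, the antizyme inhibitor that frees ornithine decarboxylase from antizyme, differed little at its brightest probe, with 13.55 and 13.81 in WT, 13.71 and 13.67 in TIA1 KO, and 13.84 and 13.88 in TIAR KO MEF. The WT and TIA1 KO arrays overlapped, and the TIAR KO arrays were slightly above. The differences from WT were 0.00 ± 0.17 (95% interval -0.46 to 0.47, adjusted p = 0.989) and 0.18 ± 0.16 (95% interval -0.23 to 0.58, adjusted p = 0.644). None of its 3 probes was called in any comparison. With arrays scaled to a common median, where the median of all probes was -0.68, the TIA1 KO value became -1.59 and was called, as were Sms (-1.32), Sat1 (-1.57) and Gapdh (-1.43).

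**Figure D2:**
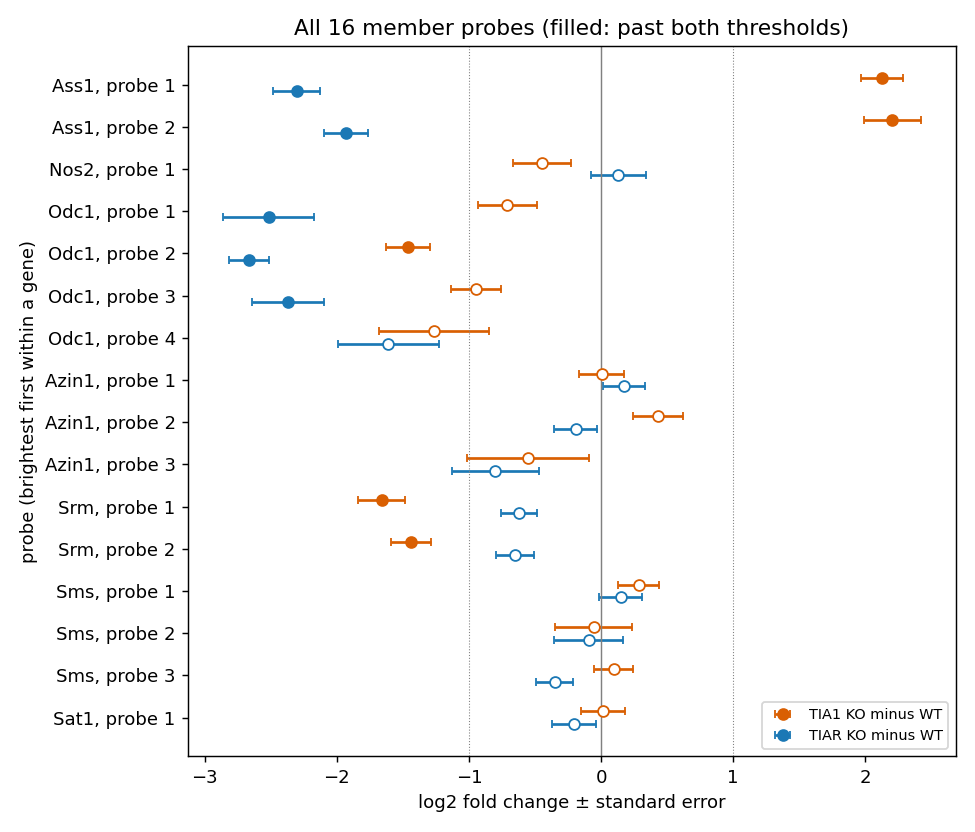
Log2 fold change against WT MEF (horizontal axis, with its standard error) of the 16 probes of the 7 genes in TIA1 KO and TIAR KO MEF, filled where the adjusted p was under 0.05 and the fold change above 2. The Ass1 probes point in opposite directions in the knockouts, Srm is filled in TIA1 KO MEF alone, and 3 of the 4 Odc1 probes are filled in TIAR KO MEF.

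Of the enzymes that build spermidine and spermine, Srm was the one with a call. Spermidine synthase adds the first aminopropyl group to putrescine. Its brightest probe gave 16.35 and 16.34 in WT, 14.83 and 14.53 in TIA1 KO, and 15.75 and 15.69 in TIAR KO MEF. The TIA1 KO arrays were the lowest and the TIAR KO arrays lay between them and WT, without overlap. Srm was 3.16-fold lower in TIA1 KO MEF (-1.66 ± 0.18, adjusted p = 0.0292). In TIAR KO MEF the difference of -0.62 ± 0.14 was not called (adjusted p = 0.0627, 95% interval -0.97 to -0.27), nor was that between the knockouts (1.04 ± 0.18, adjusted p = 0.0720). The second probe read -1.44 ± 0.15 (adjusted p = 0.0290) and -0.65 ± 0.14 (adjusted p = 0.0597). The call in TIA1 KO MEF was made under 10 of 14 alternatives and not without WT replicate 1 or 2 (adjusted p = 0.327 and 0.322), with processed signals (0.0750) or with the replicate block (0.0716). With arrays scaled to a common median, the Srm difference in TIA1 KO MEF was -3.24, beside a median of all probes of -0.68. In TIAR KO MEF, Srm was called lower in that scaling (-1.06, adjusted p = 0.0142). The order of Srm between the knockouts was thus the reverse of that of Odc1, where TIAR KO MEF were lowest, and limma called neither of these differences between the knockouts in the main setting. Among 14 alternatives, the Srm difference was called under 5 and the Odc1 difference under 4, including a fit of all 3 groups (adjusted p = 0.0237 and 0.0369).

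Sms, spermine synthase, gave 13.32 and 13.41 in WT, 13.60 and 13.69 in TIA1 KO, and 13.38 and 13.64 in TIAR KO MEF at its brightest probe. WT and TIAR KO arrays overlapped, and the TIA1 KO arrays were above the WT arrays by a small margin. The differences of 0.28 ± 0.15 (95% interval -0.13 to 0.70) and 0.15 ± 0.16 (95% interval -0.26 to 0.56) were not called, and neither were those of its 2 other probes.

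The 3 probes named Amd2 read S-adenosylmethionine decarboxylase, which makes the aminopropyl donor, and Amd1 and Amd2 could not be separated by them. The brightest, which listed an Amd1 accession, gave 15.16 and 15.16 in WT, 14.46 and 14.68 in TIA1 KO, and 14.36 and 12.89 in TIAR KO MEF. All 4 knockout arrays were below WT, but the TIAR KO arrays were far apart. The differences were -0.59 ± 0.16 (adjusted p = 0.127) and -1.53 ± 0.47 (adjusted p = 0.145), and no Amd2 probe was called in any comparison in the main setting. The brightest was called lower under 1 of 14 alternatives in each knockout, with arrays scaled to a common median in TIA1 KO (-2.18, adjusted p = 0.000115) and without TIAR KO replicate 1 in TIAR KO MEF (-2.27, adjusted p = 0.0132).

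Sat1, the acetyltransferase that starts polyamine catabolism, gave 13.38 and 13.61 in WT, 13.50 and 13.52 in TIA1 KO, and 13.19 and 13.39 in TIAR KO MEF. The groups overlapped with WT in both cases. The differences were 0.02 ± 0.17 (95% interval -0.43 to 0.47, adjusted p = 0.953) and -0.21 ± 0.17 (95% interval -0.63 to 0.22, adjusted p = 0.596).

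**Figure D3:**
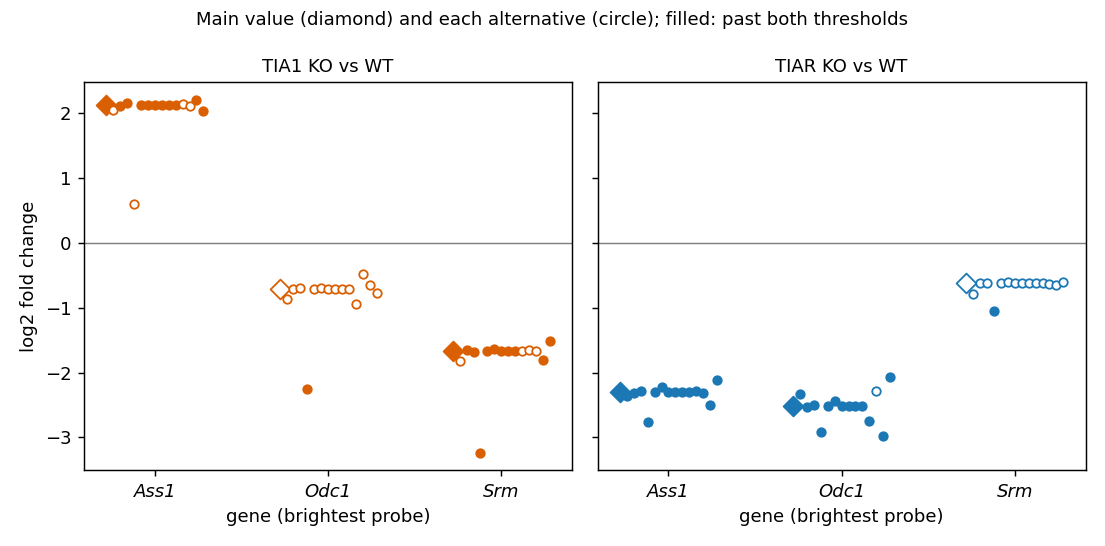
Log2 fold change (vertical axis) of Ass1, Odc1 and Srm at the brightest probe against WT MEF, with a diamond for the main value and a circle for each of 14 alternatives, filled where past both thresholds. The directions of the main values were kept under all alternatives drawn, while several TIA1 KO values are open, among them Ass1 at 0.60 with a common median.

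The rest of the pathway was read from a list of 50 further symbols, of which 47 had a probe (69 probes). By brightest probe, 3 of the 47 were called higher and 2 lower in TIA1 KO MEF, and 4 higher and 6 lower in TIAR KO MEF. The median difference over the 47 was -0.19 and -0.06. Of the 47, 8 were well above background on none of the 6 arrays. Of all 55681 probes, 2.18% were called higher and 1.36% lower in TIA1 KO MEF, and 3.39% higher and 2.37% lower in TIAR KO MEF. These shares take in every probe of the array, whereas the 47 are read only at the brightest probe of each gene.

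Next to nitric oxide synthesis, 1 gene was called lower in both knockouts. Gch1, GTP cyclohydrolase, the first enzyme of the synthesis of tetrahydrobiopterin, a cofactor of the nitric oxide synthases, gave 12.70 and 12.89 in WT, 8.08 and 9.04 in TIA1 KO, and 8.91 and 8.95 in TIAR KO MEF. Both knockouts were far below WT and overlapped each other. Gch1 was called lower by -4.23 ± 0.37 (adjusted p = 0.0188) and by -3.86 ± 0.15 (adjusted p = 0.000359), the first of these with 1 of the 2 TIA1 KO arrays well above background. Its second probe was well above background in WT MEF alone and was called at least 3.25-fold and at least 4.05-fold lower. The TIA1 KO call was not made in 4 of 14 alternatives, among them either WT array left out (adjusted p up to 0.304), whereas the TIAR KO call was made in all 14.

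Ddah1 and Ddah2, which degrade the methylarginines that inhibit nitric oxide synthases, were each called higher in 1 knockout. Ddah2 gave 12.12 and 12.56 in WT, 13.27 and 13.53 in TIA1 KO, and 15.45 and 15.59 in TIAR KO MEF. The groups rose in that order without overlap, with a call in TIAR KO (3.18 ± 0.20, adjusted p = 0.00115) and between the knockouts (2.12 ± 0.18, adjusted p = 0.0185) and none in TIA1 KO MEF (1.06 ± 0.23, adjusted p = 0.0936). In TIA1 KO MEF the Ddah2 difference turned to -0.58 with arrays scaled to a common median (adjusted p = 0.326), and 2 of 14 alternatives called it higher. Ddah1 gave 10.97 and 11.11 in WT, 12.60 and 13.18 in TIA1 KO, and 11.60 and 11.64 in TIAR KO MEF, and was called higher in TIA1 KO MEF at 1.85 ± 0.25 (adjusted p = 0.0447) and at its second probe (1.40 ± 0.15, adjusted p = 0.0278). That call was lost in 8 of 14 alternatives for the brightest probe, among them a common median, where the difference was 0.33 (adjusted p = 0.589). Nos3, the endothelial nitric oxide synthase, was called lower in TIAR KO MEF (-1.18 ± 0.21, adjusted p = 0.0312) and was not called with TIA1 knocked out, where no array was well above background. It read -1.26 ± 0.28 there (95% interval -2.03 to -0.49, adjusted p = 0.0985), or 2.13-fold lower with those arrays raised to the detection floor. Under 3 of 14 alternatives, among them without TIA1 KO replicate 2 (adjusted p = 0.0175), it was called there too. A second Nos3 probe read -0.87 ± 0.14 in TIAR KO MEF, short of a fold change of 2. The Nos3 call in TIAR KO MEF was lost in 6 of 14 alternatives, among them each of the 4 arrays left out (adjusted p up to 0.116). The Ddah2 call between the knockouts was lost in 4 of 14, among them either TIAR KO array left out (adjusted p up to 0.270). Nos1 was near background on all 6 arrays.

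Of the 4 genes listed for creatine and agmatine, Gamt and Ckb were called higher in both knockouts. Gamt, which methylates guanidinoacetate to creatine, gave 10.41 and 10.67 in WT, 12.65 and 12.69 in TIA1 KO, and 13.70 and 13.85 in TIAR KO MEF. Its groups did not overlap, and it was 4.38-fold higher in TIA1 KO (2.13 ± 0.17, adjusted p = 0.0165) and 9.43-fold higher in TIAR KO MEF (3.24 ± 0.16, adjusted p = 0.000665). Its second probe was called in TIAR KO MEF (3.10 ± 0.30, adjusted p = 0.00455) and not in TIA1 KO MEF (1.90 ± 0.29, adjusted p = 0.0545). Ckb, the brain-type creatine kinase, gave 6.42 and 6.71 in WT, 10.31 and 10.45 in TIA1 KO, and 8.68 and 8.57 in TIAR KO MEF. It was not well above background in WT MEF and was at least 10.8-fold higher in TIA1 KO (adjusted p = 0.00590) and at least 3.20-fold higher in TIAR KO MEF (adjusted p = 0.00262), with a second probe at least 5.04-fold and at least 2.71-fold higher. Between the knockouts, the second probes were not called, at 1.21 ± 0.23 for Gamt (adjusted p = 0.0865) and -0.90 ± 0.28 for Ckb (adjusted p = 0.175). At the brightest probes, the direct comparison put Gamt higher (1.11 ± 0.16, adjusted p = 0.0499) and Ckb lower (-1.76 ± 0.16, adjusted p = 0.0217) in TIAR KO than in TIA1 KO MEF. These calls were lost in 9 of 14 alternatives for Gamt (adjusted p up to 0.361) and in 5 for Ckb, among them either TIAR KO array left out (adjusted p up to 0.282). The TIA1 KO calls against WT were lost in 4 of 14 for Gamt and in 3 for Ckb, among them either WT array left out (adjusted p up to 0.273 and 0.237), and with arrays scaled to a common median the Gamt difference there was 0.58 (adjusted p = 0.328). The TIAR KO calls of both were made in all 14. Gatm, which makes guanidinoacetate from arginine, was well above background on 1 of the 6 arrays, and Agmat was not called.

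**Figure D4:**
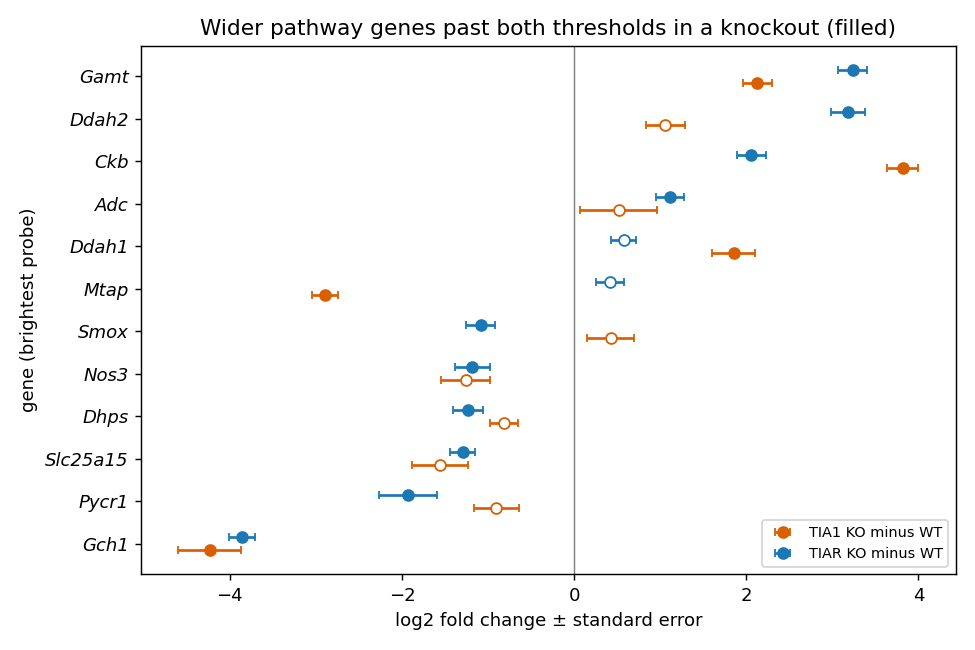
Log2 fold change against WT MEF (horizontal axis, with its standard error) at the brightest probe for the genes of the wider list called in at least 1 knockout, filled where called. Gch1 is far to the left and Gamt and Ckb to the right in both knockouts, while Mtap is filled in TIA1 KO MEF alone.

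In the methionine salvage pathway, which recycles the methylthioadenosine left by each aminopropyl transfer, Mtap was the gene called. Mtap, which cleaves methylthioadenosine, gave 12.39 and 12.46 in WT, 9.47 and 9.59 in TIA1 KO, and 12.72 and 12.97 in TIAR KO MEF. The TIA1 KO arrays, of which 1 was well above background, stood apart from the other 4, with a call against WT (-2.89 ± 0.15, adjusted p = 0.00728) and between the knockouts (3.31 ± 0.18, adjusted p = 0.00836). The call against WT was made under 9 of 14 alternatives and not without either WT array (adjusted p up to 0.245), and that between the knockouts was lost in 3, among them either TIAR KO array left out (adjusted p up to 0.249). The other 4 genes of salvage, Mri1, Apip, Enoph1 and Adi1, had no call.

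Around ornithine, TIAR KO MEF had lower levels of Slc25a15, the mitochondrial ornithine carrier (8.99 and 9.11 in WT, 7.68 and 7.83 in TIAR KO, -1.29 ± 0.15, adjusted p = 0.00817), and of Pycr1, a pyrroline-5-carboxylate reductase of proline synthesis (10.31 and 10.58 in WT, 9.00 and 8.03 in TIAR KO, -1.93 ± 0.34, adjusted p = 0.0310). In neither case did the groups overlap. In TIAR KO MEF the Slc25a15 call was lost in 2 of 14 alternatives, 1 of them without TIAR KO replicate 1 (adjusted p = 0.0505), and the Pycr1 call in 4, among them either WT array or TIAR KO replicate 2 left out (adjusted p up to 0.101). A second Pycr1 probe, well above background on 2 of the 6 arrays, read -0.17 ± 0.14 (adjusted p = 0.604). In TIA1 KO MEF the values of -1.56 ± 0.32 for Slc25a15 (95% interval -2.44 to -0.68, adjusted p = 0.0897) and -0.90 ± 0.26 for Pycr1 (adjusted p = 0.131) were not called. Slc25a15 was well above background on neither TIA1 KO array, and 2.11-fold lower with these arrays raised to the detection floor. Slc25a15 was called lower there under 3 of 14 alternatives, among them without TIA1 KO replicate 2 (adjusted p = 0.0106), and Pycr1 under 1, a common median (-2.04, adjusted p = 0.000306). The arginine carriers Slc7a1, Slc7a2 and Slc7a3, the mitochondrial aminotransferase Oat, and Asl, which completes arginine synthesis after Ass1, had no call against WT. Otc, Cps1 and Nags, which serve the urea cycle of liver, were near background on all 6 arrays.

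Downstream of the polyamines, Smox, spermine oxidase, was called lower in TIAR KO MEF (10.51 and 10.81 in WT, 9.64 and 9.51 in TIAR KO, -1.08 ± 0.17, adjusted p = 0.0226), where its second probe read -0.12 ± 0.24 (adjusted p = 0.858). Dhps, which uses spermidine to make the hypusine residue of eIF5A, was called lower in TIAR KO MEF by both of its probes, at -1.23 ± 0.18 (adjusted p = 0.0165) and -1.83 ± 0.17 (adjusted p = 0.00377). Its WT arrays gave 14.44 and 14.55 and its TIAR KO arrays 13.09 and 13.43, without overlap. Adc, named on the array for arginine decarboxylase and now known as the second antizyme inhibitor, was called higher in TIAR KO MEF (8.39 and 8.11 in WT, 9.30 and 9.43 in TIAR KO, 1.11 ± 0.17, adjusted p = 0.0192), with a second probe at 0.54 ± 0.14 (adjusted p = 0.0928). Of 14 alternatives, 5 lost the call of Smox (adjusted p up to 0.173), 4 that of Dhps (up to 0.123) and 4 that of Adc (up to 0.236). Among these were WT replicate 2 and TIAR KO replicate 1 left out for all 3 genes, WT replicate 1 for Dhps, and TIAR KO replicate 2 for Smox and Adc. The antizyme Oaz1, the polyamine transporters Atp13a2 and Atp13a3, and the brightest probes of Mat2a and Mat2b were not called in either knockout.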

How the data were processed

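For each array, the authors deposited the scanner software's spot intensity, local background, processed intensity and quality flags, none normalized between arrays, and a table of log2 values stated to be normalized (limma, version not given in the sources used here). Probe names and mm9 positions came from the scanner files. Mean intensities were corrected with normexp (offset 50), taken to log2, and normalized with 1 pass of loess and with quantiles. Control and outlier spots were left out and spots of a probe averaged. Each comparison was fitted over all probes with limma 3.58.1 (lmFit, eBayes, two-sided), without covariates, and the fit was tested on simulated data. The authors' table, which the choice of members refers to, served as an alternative and correlated at 0.997 to 0.999 with these values on the same array. A probe was well above background where the software rated 50% or more of its spots so. Where the dimmer group had no such array, a fold was computed by raising each of its arrays to the lowest well-above-background value on that array. This detection floor was 5.78 on TIA1 KO replicate 2 and 6.59 on WT replicate 2, beside array medians of 7.28 and 7.30. Dim values on such arrays were often left as measured, so these folds are not strict limits. A gene was read at its brightest probe, and the genes named were all members reported here, Tia1, Tial1, Gapdh and genes of the wider list called against WT. Members and lists were chosen with earlier results of these data known. The 2 arrays per group limit the precision. The alternatives tried are described in the closing section. Some genes of the route are not reported here.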

Additional observations from a re-analysis of the deposited data

How the results depend on the processing

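Over 14 alternatives for each comparison, the TIAR KO MEF counts of called member probes lay between 5 and 8, beside 5, with 8 under a common median, and those of all probes between 2307 and 4179, beside 3206. The TIA1 KO MEF counts, 5 member probes and 1969 of all probes, moved more. Leaving out 1 array at a time gave 0 to 7 and 0 to 10735, with 0 for both without either WT array, where 7 member probes and 7202 and 7415 of all probes had an unadjusted p under 0.05. For TIAR KO against TIA1 KO MEF (2 and 1866) it gave 0 to 4 and 0 to 10086, with 0 for both without either TIAR KO array (7 member probes and 6318 and 6402 of all probes at an unadjusted p under 0.05). Causes were not tested. A lone array left in a group was assumed to vary like the others.

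Signals processed by the scanner software gave 0 member probes (7 at an unadjusted p under 0.05) and 0 of all probes (27765) in TIA1 KO MEF, and moved the median of all probes to 1.98 there. A common median gave 11 member probes, all lower, and 16041 probes in TIA1 KO MEF, and 5 and 8416 between the knockouts. The authors' table called 1293 probes in TIA1 KO MEF. A fit of the 3 groups called 3986 there, and 6 and 3183 between the knockouts. Between the knockouts, testing only probes well above background in a group gave 5 and 2910, and an intensity trend gave 5 member probes.

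The replicate numbers did not pair the arrays, since correlations of deviations from group means were 0.08, 0.03 and -0.07. With the replicate block, the calls were 2 and 671 in TIA1 KO MEF, both higher and 1 of them the brightest Ass1 probe, and 0 and 0 between the knockouts (9 and 10684 at an unadjusted p under 0.05). Slide and scan could not be fitted as a block because there was 1 slide.

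Some differences that were not called changed sign. With processed signals these were Azin1 (-0.32) and Sat1 (-0.23) in TIA1 KO MEF, and Azin1 (-0.14), Sms (-0.0693), Tia1 (0.28) and Gapdh (-0.10) in TIAR KO MEF. With a common median they were Azin1 (-1.59), Sms (-1.32), Sat1 (-1.57), Tial1 (-0.97), Ddah2 (-0.58) and Smox (-0.93) in TIA1 KO MEF, and Azin1 (-0.26), Sms (-0.30), Nos2 (-0.00839), Gapdh (-0.16) and Mtap (-0.00639) in TIAR KO MEF. With the authors' table they were Sat1 (-0.005) in TIA1 KO MEF and Tia1 (0.12) in TIAR KO MEF, and quantiles without loess gave -0.00700 for Azin1 in TIA1 KO MEF. Leaving out 1 array at a time crossed 0 for Azin1 (-0.13 to 0.14), Sat1 (-0.10 to 0.13), Gapdh (-0.13 to 0.0493) and Adc (-0.0818 to 1.12) in TIA1 KO MEF, and for Nos2 (-0.0657 to 0.33) and Tia1 (-1.15 to 1.03) in TIAR KO MEF.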

Other observations

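Mtap lies on chromosome 4 of mm9 (probe at chr4:88826213-88826272) beside Cdkn2a and Cdkn2b, which encode inhibitors of cyclin-dependent kinases, and their values were read after that of Mtap was seen. The brightest Cdkn2a probe (chr4:88920405-88920464) gave 15.64 and 15.62 in WT, 12.42 and 12.49 in TIA1 KO, and 16.01 and 16.22 in TIAR KO MEF. The TIA1 KO arrays were again apart from the other 4, with a difference from WT of -3.18 ± 0.15 (limma, adjusted p = 0.00582) and, at a second probe, of -3.49 ± 0.31 (adjusted p = 0.0194). Cdkn2b (chr4:88952276-88952335) gave 12.16 and 12.59, 10.67 and 10.41, and 12.76 and 12.76 in WT, TIA1 KO and TIAR KO MEF, and was called lower in TIA1 KO MEF at its brightest probe (-1.84 ± 0.23, adjusted p = 0.0392) and not at its second (-1.71 ± 0.32, adjusted p = 0.0778). Ifne and Dmrta1, further out on either side, were near background on 6 and 5 of the 6 arrays. The alternative settings were not read for Cdkn2a and Cdkn2b, whereas the Mtap call against WT was made under 9 of 14. What these neighbouring genes share was not tested.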
